A study of Mus musculus with 44 samples.

Results

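HexERTVP2 clone 1 was compared after and before recombination, with no ligand present in either state. By their labels, 9 of the 44 arrays of the series belonged to this comparison: 4 arrays of recombined cells (replicates 1 to 4) and 5 arrays of unrecombined cells (replicates 1 to 5). The cells were CGR8 (clone cgr8.8), a mouse embryonic stem (ES) cell line. Each array was a single-channel Affymetrix array, hybridised with a biotin-labelled sample made from total RNA. Both groups carried HexERTVP2 targeted to the Rosa26 locus and neither received 4-hydroxytamoxifen (4-OHT), so that recombination was the labelled difference between them. Clone 1 is a single clone, and the labels state neither the recombinase, nor the cassette that was recombined, nor whether a group's arrays stem from separate cultures. All p-values below therefore measure only a spread between arrays, which may be technical. Arrays of 4 further kinds were used for reference: wild type (4 arrays), clone 1 with 4-OHT (4 recombined, 3 unrecombined), clone 2 without 4-OHT (3 recombined, 3 unrecombined), and cells with Hex itself in place of the fusion (4 recombined, 3 of 4 unrecombined, since array 2 of the latter stood apart and was left out of the fit). Clone 2 with 4-OHT (3 recombined, 3 unrecombined) also entered the fit, and thus the spread behind each p-value, and the reading of chromosome 8.

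Hex, encoded by Hhex, is a homeodomain protein that mostly represses transcription and is an early marker of anterior endoderm. As its name reads, HexERTVP2 joins Hex to a mutated oestrogen receptor domain, which holds a fusion protein inactive until 4-OHT is bound, and to a VP activation domain, which turns a repressor into an activator. In designs of this kind recombination removes a block to expression of the inserted gene, so recombined cells without ligand are the control for leakage of the fusion and for the recombination step itself.

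The level of each probe set is given as the log2 of its deposited intensity, and each difference as log2 recombined minus log2 unrecombined with its standard error (SE) from the fit. A probe set was called at an adjusted p below 0.05. The 9 arrays were alike: their median intensities lay between 107 and 110 and the 36 pairwise Pearson correlations over probe sets between 0.975 and 0.997. Their median log2 level was 6.76. Of the genes named below, Prss23, Crabp2 and the Rosa26 transcript lay under it in both groups, and Acta1 and Phlda1 in unrecombined arrays. Probe sets called dim below also lay under it. All 6 ES cell markers measured (Pou5f1, Nanog, Sox2, Zfp42, Tdgf1, Utf1) lay above the median of the arrays, with a summed intensity of 10520 to 14200 in recombined and 11040 to 12980 in unrecombined arrays. Among the 19 measured markers of other cell types, 0 were called, where 1.32% of all probe sets were, so that 0 of 19 says little. The summed intensity was 910.1 to 1023 against 886.5 to 976.5 for the 6 primitive endoderm markers and 937 to 1330 against 973 to 1062 for the 5 fibroblast markers, recombined against unrecombined. RNA and labelling quality can be read from β-actin, as the log2 of its 3′ over its 5′ signal, which was 1.59, 0.733, 2.34 and 1.67 in the recombined and 1.34, 0.588, 1.19, 1.38 and 0.568 in the unrecombined arrays. The groups overlapped, and the difference of 0.570 had an exact permutation p of 0.135 (two-sided, 126 arrangements, smallest possible p 0.00794). Without recombined replicate 2 the difference was 0.853, with an exact permutation p of 0.0357.

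The inserted gene and its locus were read first. Hhex read 6.13, 6.29, 6.42 and 6.30 in recombined arrays and 6.17, 6.14, 6.18, 6.11 and 6.17 in unrecombined arrays (log2). The groups overlapped, and the log2 difference of 0.13 (SE 0.07) was not called (adjusted p = 0.558). Which part of the Hhex transcript this probe set reads, and whether the fusion holds it, is not given in the sources used here, so it does not check the labels. The Rosa26 transcript, Gt(ROSA)26Sor, was at 4.51 ± 0.21 in recombined and 4.42 ± 0.27 in unrecombined arrays (log2, mean ± SD, n = 4 and 5), while wild type was at 5.36 ± 0.17 (n = 4). Clone 1 thus lay below wild type in both states, and its log2 difference of 0.09 (SE 0.12) was not called. The log2 difference was -0.02 for Tle4, a Groucho co-repressor (SE 0.22, adjusted p = 0.971), and -0.20 for Nodal, a signalling ligand of the early embryo (SE 0.13, adjusted p = 0.62), neither of them called. The sign for Tle4 turned under several other settings.

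In recombined clone 1 cells without ligand, 9 of 25 listed interferon and immunoproteasome genes were lower, Gbp2 and Psmb8 among them, and 4 of 22 listed keratin and smooth muscle genes were higher. Of all 8251 genes, 0.703% were lower and 0.848% higher. The lists were chosen with earlier results of these data known, so all list counts here are a description only. Pim2 and Cdkn1c were the other large falls, and Anxa1, Acta1 and Col4a1 the largest rises. Of 12422 probe sets, 164 were called (1.32%), 93 of them higher (0.749%) and 71 lower (0.572%) in recombined cells. The arrays of the groups did not overlap in 138 of the 164, and in 397 of all probe sets (3.2%). The largest rises and falls named below were picked among these 138, so their lack of overlap was fixed by that choice. The median log2 difference over all probe sets was 0.02. The main fit did not pair the arrays. As an alternative, arrays of the same replicate number were taken as pairs. Unrecombined replicate 5 has no partner, so it does not affect the differences in that alternative. With the number as a block 124 were called (67 higher, 57 lower), 117 of them among the 164. The count fell to 109 without recombined replicate 3 (56 higher, 53 lower) or unrecombined replicate 5 (55 higher, 54 lower), and to 68 (33 higher, 35 lower) when array 2 of the unrecombined Hex group, which belongs to neither group compared, was let into the fit. With only the 9 arrays of the comparison in the fit, 49 were called (26 higher, 23 lower). After adjustment for the β-actin ratio 221 were called, but only 121 of the 164 were still among them. All 164 kept their sign there.

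Interferons act through receptors and STAT proteins, and the factors they activate bind short promoter sequences, the ISRE and the GAS element. Among the genes they raise are guanylate-binding proteins, the exchangeable subunits of the immunoproteasome, which cuts proteins into peptides, and the MHC class I molecules that present those peptides. ES cells are known for a weak response to interferon. Of 25 measured genes on a list of interferon and immunoproteasome genes, 9 were called lower and 0 higher, where 0.703% and 0.848% of all 8251 genes were. That list was chosen with earlier results of these data known, so the count is no independent test. The median log2 difference of the list was -0.18, and 21 of its 25 members lay below 0. In bulk RNA, fewer cells with a transcript and less of it per cell cannot be told apart.

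The promoter windows of 6 of the 9 lower genes are shown because they hold one of the 2 elements in these letters (RefSeq, GRCm38.p6, 250 bases before to 50 after the annotated start, first window listed for the gene, 5′ to 3′ on the gene's strand). Capitals mark matches to GAAANNGAAA or its reverse complement TTTCNNTTTC (core of the ISRE) and to TTCNNNGAA (GAS, the same on both strands), and overlapping matches run together.
Gbp2 promoter, chr3:142620413-142620712, strand +: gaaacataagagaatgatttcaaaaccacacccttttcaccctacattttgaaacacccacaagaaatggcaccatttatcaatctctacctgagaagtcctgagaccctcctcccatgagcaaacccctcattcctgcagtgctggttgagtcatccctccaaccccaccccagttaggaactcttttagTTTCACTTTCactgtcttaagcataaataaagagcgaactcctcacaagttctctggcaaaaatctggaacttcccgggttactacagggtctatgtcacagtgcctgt
Gbp2b promoter, chr3:142594597-142594896, strand +: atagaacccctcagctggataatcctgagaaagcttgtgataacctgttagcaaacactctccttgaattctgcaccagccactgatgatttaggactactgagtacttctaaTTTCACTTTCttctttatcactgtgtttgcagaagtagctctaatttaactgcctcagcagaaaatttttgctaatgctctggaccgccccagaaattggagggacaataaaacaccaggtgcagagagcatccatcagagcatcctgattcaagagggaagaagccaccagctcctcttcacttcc
Gbp3 promoter, chr3:142559794-142560093, strand +: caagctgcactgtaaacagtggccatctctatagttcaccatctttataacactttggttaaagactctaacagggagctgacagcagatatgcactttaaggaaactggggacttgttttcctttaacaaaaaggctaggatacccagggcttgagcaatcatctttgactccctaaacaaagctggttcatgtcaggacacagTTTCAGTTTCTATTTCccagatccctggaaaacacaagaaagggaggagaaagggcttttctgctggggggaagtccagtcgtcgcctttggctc
Isg15 promoter, chr4:156200769-156201068, strand -: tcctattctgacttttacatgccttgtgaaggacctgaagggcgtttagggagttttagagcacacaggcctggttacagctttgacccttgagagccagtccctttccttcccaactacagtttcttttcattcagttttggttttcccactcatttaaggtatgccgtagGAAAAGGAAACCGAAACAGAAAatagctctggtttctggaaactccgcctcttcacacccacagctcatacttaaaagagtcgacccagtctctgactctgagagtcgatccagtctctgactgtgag
Irf1 promoter, chr11:53769764-53770063, strand +: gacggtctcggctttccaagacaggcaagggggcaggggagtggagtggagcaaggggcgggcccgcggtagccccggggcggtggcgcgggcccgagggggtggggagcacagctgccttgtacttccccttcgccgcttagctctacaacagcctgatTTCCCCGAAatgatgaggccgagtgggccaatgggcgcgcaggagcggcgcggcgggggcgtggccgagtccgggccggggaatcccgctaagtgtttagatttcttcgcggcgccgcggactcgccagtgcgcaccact
Psmb8 promoter, chr17:34197945-34198244, strand +: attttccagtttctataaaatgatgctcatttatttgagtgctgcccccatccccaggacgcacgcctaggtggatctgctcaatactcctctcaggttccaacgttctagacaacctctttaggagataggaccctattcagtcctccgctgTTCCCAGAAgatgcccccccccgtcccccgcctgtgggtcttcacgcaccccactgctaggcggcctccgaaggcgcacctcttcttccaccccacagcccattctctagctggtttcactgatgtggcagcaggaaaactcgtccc
The ISRE core stood in the windows of Gbp2, Gbp2b, Gbp3 and Isg15, with 3 overlapping matches in Isg15, and the GAS letters in those of Irf1 and Psmb8. Of all 32851 windows of 300 bases, 3.44% held the ISRE core and 8.3% the GAS letters. Among the 14 list members with a window that were not called lower, 8 held the ISRE core and 4 the GAS letters, so these letters did not divide the members that fell from those that did not pass. The windows of Psmb9, H2-K1 and H2-D1, the other 3 members called lower, held neither.

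Gbp2, a guanylate-binding protein, had the smallest p of all probe sets. It read 7.55, 7.52, 7.54 and 7.59 in the recombined arrays and 8.77, 8.50, 8.61, 8.69 and 8.59 in the unrecombined arrays (log2). Every recombined array lay below every unrecombined array, and the log2 difference was -1.08 (SE 0.08, 2.12-fold lower, adjusted p = 2.9e-11). Its neighbours and paralogs on chromosome 3 moved with it. Gbp2b read 7.11, 7.23, 7.49 and 7.35 against 8.16, 8.12, 8.42, 8.50 and 8.05 in unrecombined arrays, and fell by 0.96 (SE 0.09, adjusted p = 7.79e-08). Gbp3 read 7.15, 7.04, 7.47 and 7.38 against 8.39, 7.73, 8.18, 8.23 and 7.85, a log2 difference of -0.81 (SE 0.14, adjusted p = 0.000409). The arrays overlapped in neither gene. These genes are similar in sequence, and how far each probe set reads the others is not known here.

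Psmb8, an immunoproteasome catalytic subunit, read 6.15, 6.57, 6.01 and 6.58 in recombined and 7.50, 8.08, 7.97, 7.77 and 8.08 in unrecombined arrays (log2). The gap between the groups was close to 1 on the log2 scale, and the mean fell by 1.55 (SE 0.18, 2.93-fold lower, adjusted p = 1.01e-06). Psmb9, another such subunit, fell by 0.51 (SE 0.08, adjusted p = 0.000136), from 6.74 ± 0.09 to 6.23 ± 0.17. Psmb10, the remaining catalytic subunit, was at 8.45 ± 0.43 against 9.36 ± 0.40 and overlapped between the groups (log2 difference -0.91, SE 0.25, adjusted p = 0.0665, not called). Psme1, a subunit of the proteasome activator, read 7.63, 8.28, 8.22 and 8.37 in recombined and 8.71, 8.79, 9.02, 8.95 and 8.96 in unrecombined arrays. The lowest of these is recombined replicate 1, and the log2 difference of -0.76 (SE 0.17, adjusted p = 0.0132) was -0.59 without it (adjusted p = 0.106). With array 2 of the unrecombined Hex group in the fit its adjusted p was 0.614. A dim probe set of the same gene read 0.44 higher in recombined cells (SE 0.29) and was not called.

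The antigen presentation genes showed smaller differences. The MHC class I heavy chains H2-K1 and H2-D1 fell, with log2 differences of -0.41 (SE 0.07) and -0.30 (SE 0.06) and adjusted p of 0.000499 and 0.00442. Neither overlapped between the groups, and both probe sets are of the kind that can read several members of the class I family. Tapbp (tapasin, which loads peptide onto class I) read 7.06, 7.47, 7.23 and 7.44 against 8.24, 8.04, 8.13, 8.17 and 7.91 with its called probe set and fell by 0.80 (SE 0.11, adjusted p = 4.01e-05). In its other 2 probe sets the log2 differences were -0.21 (SE 0.09) and -0.04 (SE 0.07), neither called, so Tapbp is uncertain. The peptide transporters Tap1 and Tap2 differed by -0.17 (SE 0.06) and -0.16 (SE 0.11), and B2m, the light chain of class I, by 0.12 (SE 0.18), and these 3 were not called.

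Irf1, a transcription factor that interferon induces and that binds the ISRE, read 7.68, 7.86, 7.52 and 7.66 in recombined arrays and 8.38, 8.64, 8.34, 8.17 and 8.66 in unrecombined arrays (log2). It fell by 0.76 without overlap (SE 0.10, 1.69-fold lower, adjusted p = 1.54e-05). Isg15, a ubiquitin-like modifier, read 7.17, 7.22, 7.02 and 6.98 against 7.60, 8.06, 7.69, 7.62 and 8.12, and fell by 0.72 (SE 0.09, adjusted p = 4.26e-06). In both genes unrecombined replicates 2 and 5 read highest. The other 16 list members were not called. Among them the log2 difference was -0.03 for Ifit1 (SE 0.10), -0.02 for Ifit2 (SE 0.06), 0.11 for Irf7 (SE 0.09), 0.17 for Irf9 (SE 0.11) and 0.49 for Iigp1 (SE 0.19, adjusted p = 0.323), while Psmb10 at -0.91 lay furthest below 0. Outside the list, and named after their values were seen, Ifi35 and Trim30a, which interferon also induces, were called lower at -0.65 (SE 0.14, adjusted p = 0.0106) and -0.23 (SE 0.06, adjusted p = 0.0365).

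**Figure D1:**
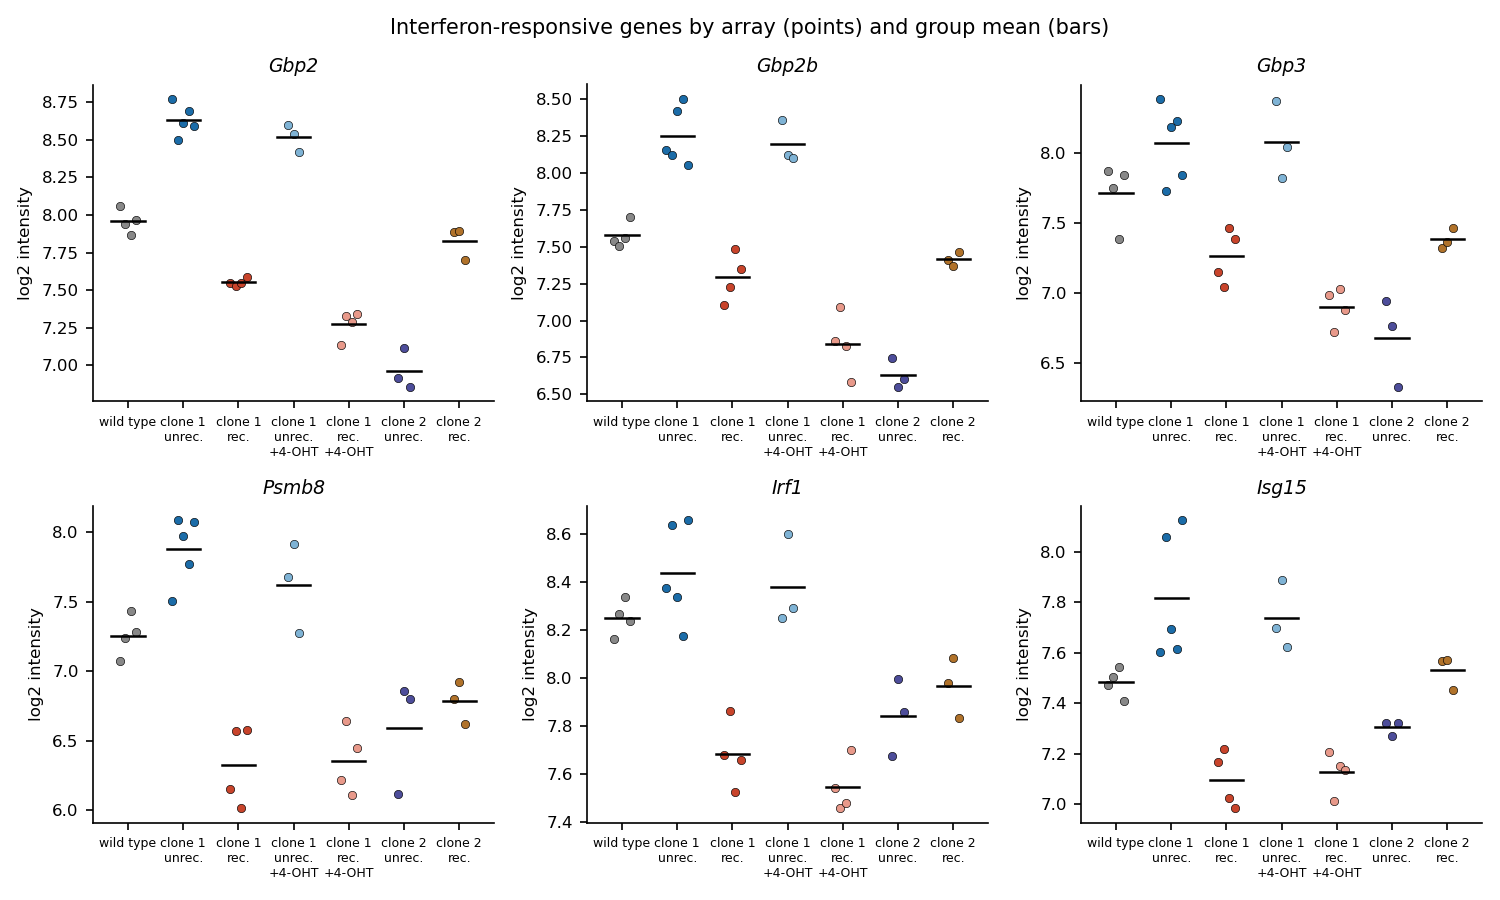
Log2 intensity of Gbp2, Gbp2b, Gbp3, Psmb8, Irf1 and Isg15 (vertical axes) on each array (points) of wild type, clone 1 and clone 2 cells, with the mean of each group as a bar; unrec. and rec. are unrecombined and recombined. In all 6 genes every recombined clone 1 array lies below every unrecombined clone 1 array, without and with 4-OHT, and in Gbp2 the clone 2 arrays lie the other way round.

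The levels in the other lines place these differences. Gbp2 was at 7.96 ± 0.08 in wild type (n = 4), between the clone 1 groups, at 6.96 ± 0.13 in unrecombined and 7.83 ± 0.11 in recombined clone 2 (n = 3 each), and at 6.56 ± 0.10 (n = 3) and 7.84 ± 0.19 (n = 4) in unrecombined and recombined Hex cells. The means of the 3 recombined groups without ligand thus spanned 7.55 to 7.84 and those of the 3 unrecombined groups 6.56 to 8.63. Unrecombined clone 1 had the highest level of Gbp2 among these groups and wild type. In Psmb8 unrecombined clone 1 was also above wild type (7.88 ± 0.25 against 7.26 ± 0.15) and recombined clone 1 below it (6.33 ± 0.29).

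Pim2, a serine/threonine kinase that promotes survival, had the largest log2 difference of the 164 called probe sets. It read 8.33, 8.87, 8.49 and 8.795 in recombined arrays and 10.04, 10.33, 10.31, 10.04 and 10.66 in unrecombined arrays. There was no overlap, and the log2 level fell by 1.65 (SE 0.17, 3.15-fold lower, adjusted p = 1.59e-07), with wild type between the groups at 9.52 ± 0.12. A second, dimmer probe set of Pim2 fell by 0.48 (SE 0.08, adjusted p = 0.000409). Its relative Pim1 was lower by a log2 difference of -0.35 (SE 0.08, adjusted p = 0.0199). Its call was lost with the replicate block (adjusted p = 0.052) and without recombined replicate 3 or 4 or unrecombined replicate 2 or 5 (adjusted p 0.0801 to 0.144). A second probe set of Pim1 was at -0.26 (SE 0.12) and was not called. Pim1 was the only one called of 11 measured genes of LIF and STAT3 signalling, the pathway that holds ES cells undifferentiated. With 0.703% of all genes called lower, 1 of 11 says little.

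Cdkn1c (p57), an imprinted inhibitor of cyclin-dependent kinases, read 8.84, 8.18, 8.67 and 8.22 in recombined arrays and 10.01, 9.39, 9.65, 9.69 and 9.32 in unrecombined arrays (log2). It fell by 1.14 (SE 0.20, adjusted p = 0.000839), and wild type was at 8.86 ± 0.18, nearer to the recombined cells. Trh, which encodes thyrotropin-releasing hormone, read 8.24, 8.63, 8.28 and 8.21 against 9.20, 9.63, 9.12, 8.83 and 9.72 and fell by 0.96 (SE 0.18, adjusted p = 0.0017). Crabp2, a carrier of retinoic acid, fell by 0.90 (SE 0.18, adjusted p = 0.00442), from 6.07 ± 0.21 to 5.17 ± 0.30.

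Prom1 (CD133), a membrane protein of stem and progenitor cells, fell in both of its probe sets, with log2 differences of -0.77 (SE 0.10) and -0.53 (SE 0.12) and adjusted p of 4.54e-06 and 0.00921. Coch, an extracellular matrix protein, fell by 0.72 (SE 0.14, adjusted p = 0.00237), and Car2, a carbonic anhydrase, by 0.71 (SE 0.11, adjusted p = 0.000195). The Car2 levels of unrecombined arrays lay within 10.79 to 10.89, and recombined replicate 1, at 9.73, read lowest of all. Coch lost its call when only these 9 arrays (adjusted p = 0.168) or only the 16 arrays of clone 1 (adjusted p = 0.0623) were fitted.

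The genes that rose were headed by Anxa1, an annexin that binds membranes in the presence of calcium. Its brightest probe set read 8.83, 8.66, 9.09 and 8.88 in recombined and 7.99, 7.47, 7.94, 7.80 and 7.45 in unrecombined arrays (log2). The groups were well apart, and the log2 difference was 1.13 (SE 0.12, 2.20-fold, adjusted p = 3.87e-07). The 2 other probe sets of Anxa1 rose by 1.09 (SE 0.16) and 0.94 (SE 0.15), both called. Of other annexins, Anxa3 rose by 0.76 (SE 0.10, adjusted p = 1.79e-05) and Anxa2 by 0.47 (SE 0.12, adjusted p = 0.0295), of which Anxa2 was named after its values were seen.

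On a list of keratins and smooth muscle cytoskeleton, also chosen with earlier results known, 4 of 22 measured genes were called higher and 0 lower. Of all genes 0.848% and 0.703% were. Of the 22, 20 lay above 0, and the median log2 difference of the list was 0.15. Acta1, skeletal muscle actin, read 7.25, 7.68, 6.77 and 7.02 in recombined and 6.19, 6.10, 5.97, 5.93 and 6.31 in unrecombined arrays and rose by 1.08 (SE 0.14, 2.11-fold, adjusted p = 7.83e-06). Krt18, a keratin of simple epithelia, read 7.99, 8.997, 8.51 and 8.83 against 7.49, 7.65, 7.81, 7.74 and 7.71 and rose by 0.90 (SE 0.18, adjusted p = 0.00453). Recombined replicate 1 read lowest of its group for Krt18, still above all unrecombined arrays, and with only these 9 arrays in the fit the adjusted p was 0.0539. A dim second probe set of Krt18 was at 0.11 (SE 0.07), not called.

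Krt8, the partner of Krt18 in keratin filaments, rose by 0.62 (SE 0.15, adjusted p = 0.0194), from 8.90 ± 0.18 to 9.53 ± 0.28. That call was lost without unrecombined replicate 1 or 4 or recombined replicate 2 or 4 (adjusted p 0.0506 to 0.0946) and with array 2 of the unrecombined Hex group in the fit (0.165). Acta2, smooth muscle actin, rose by 0.55 (SE 0.13, adjusted p = 0.0155). It was not called with the replicate block (log2 difference 0.47, adjusted p = 0.0945) or without unrecombined replicate 5 or recombined replicate 3 or 4 (adjusted p 0.0601 to 0.0814). Tagln, Vcl and Krt19 of the same list were at 0.50, 0.40 and 0.42 and were not called.

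Col4a1, a chain of type IV collagen, read 9.11, 8.69, 9.32 and 8.90 in recombined and 8.25, 7.67, 8.03, 8.05 and 7.76 in unrecombined arrays (log2). It rose by 1.05 without overlap (SE 0.17, 2.07-fold, adjusted p = 0.000226). Its partner Col4a2 rose by 0.30 (SE 0.05, adjusted p = 0.00117), with recombined arrays between 7.99 and 8.08 and unrecombined arrays between 7.69 and 7.81. With only the 9 arrays of the comparison in the fit the adjusted p of Col4a2 was 0.0942. Both genes, with Krt8 and Krt18, made up the 4 called higher of 33 measured genes of primitive and visceral endoderm, where 0.848% of all genes were. This tissue lays down a basement membrane, and 0 of its list were lower, where 0.703% of all genes were. The defining factors of that tissue were not called: Gata6 differed by 0.00 (SE 0.07), Gata4 by 0.04 (SE 0.09), Sox17 by 0.11 (SE 0.09) and Sox7 by 0.07 (SE 0.07). The laminin chains Lama1, Lamb1 and Lamc1 of the same membrane were at 0.14, 0.05 and 0.25 and were not called.

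Among the remaining large rises, Prss23, a serine protease, read 6.28, 6.43, 6.45 and 6.22 in recombined and 5.68, 5.44, 5.67, 5.45 and 5.34 in unrecombined arrays and rose by 0.83 (SE 0.09, adjusted p = 1.59e-07), further above the 4.85 ± 0.15 of wild type. Vegfc, a growth factor of lymphatic vessels, rose by 0.80 (SE 0.12, adjusted p = 0.00016), F3 (tissue factor, which starts coagulation) by 0.78 (SE 0.15, adjusted p = 0.00312) and Lgals3 (galectin-3, a sugar-binding protein) by 0.75 (SE 0.14, adjusted p = 0.00192). None of the 3 overlapped between the groups, as the rule that picked them required. In Lgals3 wild type was at 6.61 ± 0.22, near the recombined cells at 6.44 ± 0.31.

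Phlda1, a pleckstrin homology-like protein, read 7.01, 7.12, 7.71 and 7.42 against 6.40, 6.08, 6.48, 6.26 and 6.23 and rose by 1.03 (SE 0.14, adjusted p = 2.72e-05). Kdelr3, a receptor that returns proteins to the endoplasmic reticulum, rose by 0.86 (SE 0.12, adjusted p = 1.67e-05), Phldb2, which anchors microtubules at the cell cortex, by 0.86 (SE 0.18, adjusted p = 0.00554), and Aard by 0.71 (SE 0.09, adjusted p = 8.97e-06). Phldb2 had an adjusted p of 0.0544 with only these 9 arrays in the fit. In all 4 genes each recombined array read above each unrecombined array, as the rule that picked them required.

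**Figure D2:**
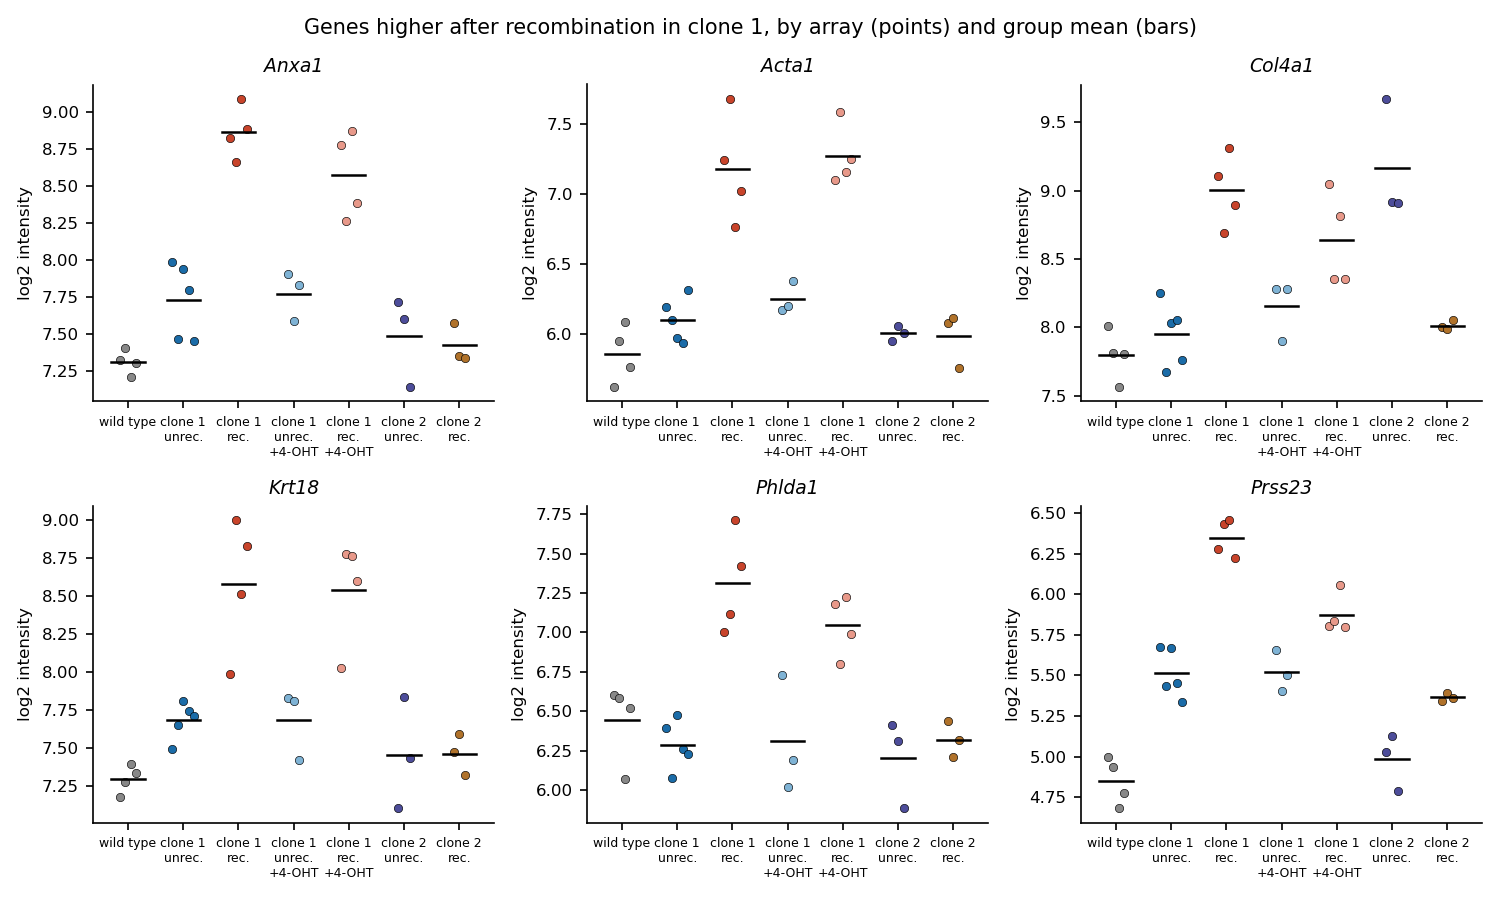
Log2 intensity of Anxa1, Acta1, Col4a1, Krt18, Phlda1 and Prss23 (vertical axes) on each array (points), with group means as bars, for wild type, clone 1 and clone 2; unrec. and rec. are unrecombined and recombined. Recombined clone 1 arrays without 4-OHT lie above the unrecombined ones in every panel, and in Col4a1 unrecombined clone 2, at 9.17 ± 0.44, lies near recombined clone 1.

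The other lists held fewer calls, or as many among the 24 imprinted genes (4). Of 30 lists of pathways and cell types, 12 had 0 called genes and 13 had 1. Of all 8251 genes 0.848% were called higher and 0.703% lower, so 0 or 1 call in such a list says little. The lists with 0 called included FGF signalling (12 measured genes), BMP and Id genes (19), anterior endoderm (11), primitive streak and mesoderm (26), neuroectoderm (24), homeobox genes (38), and hypoxia and glycolysis (24). In the last, 22 of 24 genes lay below 0 with a median log2 difference of -0.20, and its members Pfkl and Tpi1, glycolytic enzymes, were at -0.75 (SE 0.25) and -0.63 (SE 0.27), or at -0.27 and -0.14 after adjustment for the β-actin ratio. Of 24 pluripotency genes 1 was called: Nr0b1, a repressor active in ES cells, rose by 0.51 (SE 0.12, adjusted p = 0.0158). That call was lost without unrecombined replicate 2 or 5 or recombined replicate 3 or 4 (adjusted p 0.0563 to 0.154), and a dim second probe set was at 0.10 (SE 0.19), not called. Of 21 genes of Nodal and activin signalling, Inhbb (an activin subunit) rose by 0.44 (SE 0.08, adjusted p = 0.000516), and Skil (a repressor of SMAD proteins) and Fst (follistatin, an activin antagonist) fell by 0.36 (SE 0.08) and 0.35 (SE 0.08). Inhbb was not called with array 2 of the unrecombined Hex group in the fit (adjusted p = 0.0563). Skil lost its call with weighted arrays (adjusted p = 0.0812) or with only the 9 arrays of the comparison (0.063). Fst was not called with the replicate block (adjusted p = 0.0632) or without unrecombined replicate 1 or 5 or recombined replicate 2 or 3 (0.0528 to 0.0851). Of 36 Wnt signalling genes Lef1, a transcription factor of the pathway, fell by 0.28 (SE 0.07, adjusted p = 0.0156), and its adjusted p was 0.074 with the replicate block and 0.055 to 0.144 without unrecombined replicate 2 or 5 or recombined replicate 3. Its second probe set was at -0.29 (SE 0.09), not called.

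**Figure D3:**
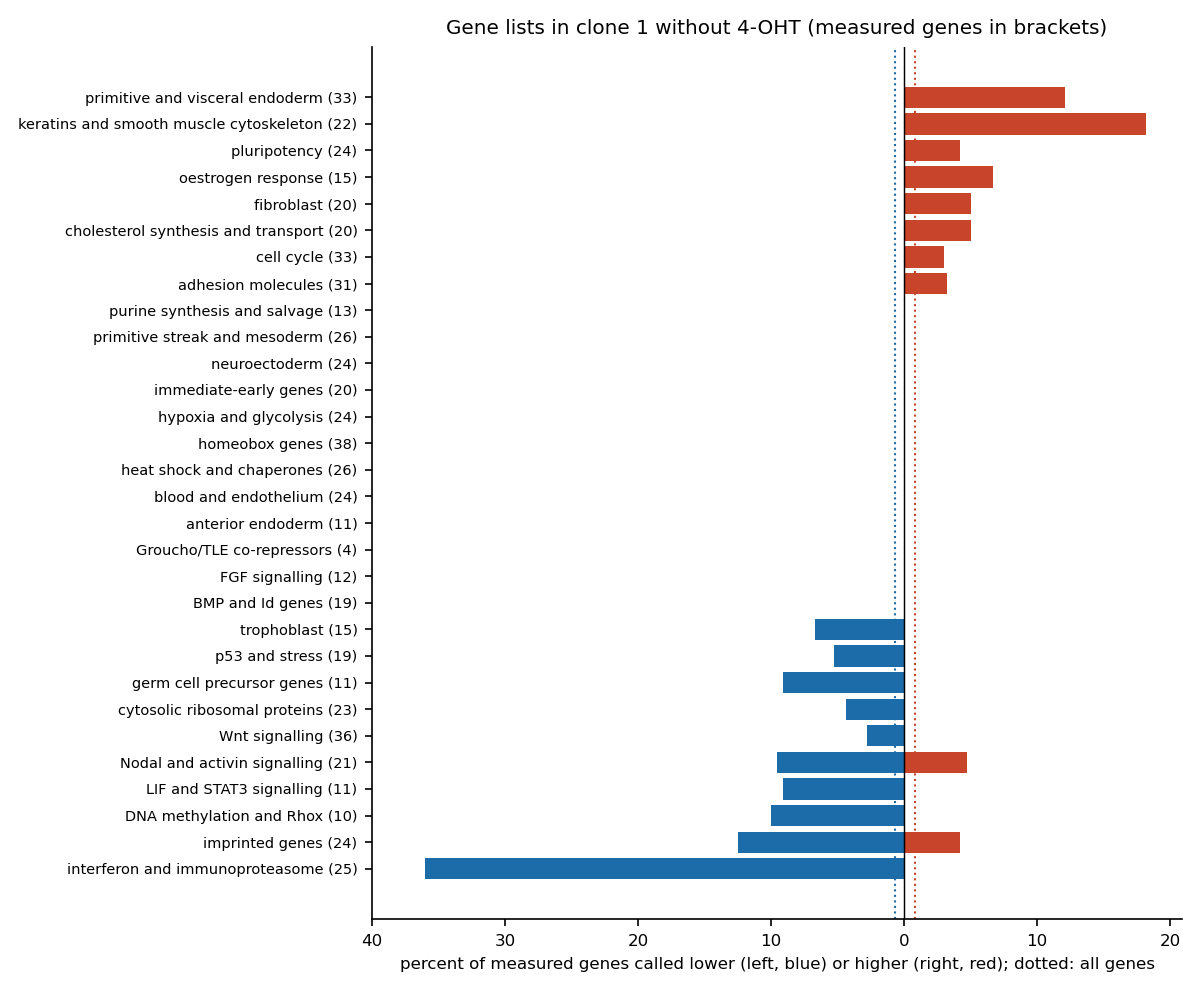
Percent of measured genes called lower (blue, to the left) or higher (red, to the right) in recombined clone 1 cells without 4-OHT, for 30 gene lists with the number of measured genes in brackets; dotted lines give the share of all 8251 genes, 0.703% lower and 0.848% higher. The interferon and immunoproteasome list holds 9 lower genes of 25, and the keratin and smooth muscle list 4 higher genes of 22.

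Clone 1 was also measured in both states with 4-OHT, on 7 other arrays that share none with the comparison without ligand. There 73 probe sets were called (0.588%), 24 higher and 49 lower, and the count was 42 without unrecombined replicate 1 and 48 without unrecombined replicate 4. Of the 164 probe sets called without ligand, 158 had the same direction with 4-OHT, where 46.4% of all probe sets did, and 49 were also called, 0 of them in the opposite direction. These 49 were 29.9% of the calls without and 67.1% of the calls with ligand. Over the 164, the Pearson correlation of the log2 differences was 0.911. The 93 that rose without ligand had a median log2 difference of 0.45 there and 0.23 with 4-OHT, and the 71 that fell had -0.44 and -0.37. Both sets of arrays come from the same clone before and after recombination.

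The interferon and immunoproteasome list again had 9 genes lower and 0 higher with 4-OHT (0.448% and 0.218% of all genes). The keratin and smooth muscle list had 2 of 22 genes higher and 0 lower there. The list of primitive and visceral endoderm had 1 of 33 higher and 0 lower, with a median log2 difference of -0.02. Gbp2 fell by 1.24 (SE 0.09, adjusted p = 2.14e-11), Gbp2b by 1.35 (SE 0.11) and Psmb8 by 1.27 (SE 0.20, adjusted p = 0.000409) on the log2 scale. Pim2 fell by 1.18 (SE 0.20) and Cdkn1c by 1.34 (SE 0.23), Acta1 rose by 1.02 (SE 0.16) and Anxa1 by 0.80 (SE 0.14), all called. Col4a1 (0.49, SE 0.19), Prss23 (0.35, SE 0.10) and Crabp2 (-0.09, SE 0.21) were not called there. The difference between the recombination effects with and without 4-OHT was tested directly in limma: 0 probe sets passed, with 393 at an unadjusted p under 0.05 (3.16% of 12422).

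Clone 2 answered the same question in another clone. Without 4-OHT, 518 probe sets were called on recombination of clone 2 (4.17%), 392 higher and 126 lower. Of the 164 called in clone 1, 86 had the same direction in clone 2, where 50% of all probe sets did. Of these 164, 18 were called in the same and 13 in the opposite direction, and the correlation of the log2 differences over the 164 was -0.01. The 18 were 11% of the calls in clone 1 and 3.47% of those in clone 2. The test of the difference itself, clone 2 minus clone 1, called 168 probe sets (1.35%), 127 of them higher. That count rested on single arrays of clone 2: it was 323 (166 higher) without unrecombined replicate 2, 77 without recombined replicate 2 and 73 without recombined replicate 3. With array 2 of the unrecombined Hex group in the fit it was 36.

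The guanylate-binding proteins went opposite ways in the clones. In clone 2 the interferon and immunoproteasome list had 4 genes higher and 1 lower, where 3.79% and 1.03% of all genes were. Gbp2 rose by 0.87 in clone 2 (adjusted p = 5.18e-07) and fell by 1.08 in clone 1, a difference of 1.95 (SE 0.12, adjusted p = 6.54e-13). Gbp2b and Gbp3 differed by 1.73 (SE 0.15) and 1.52 (SE 0.21) between the clones in the same sense, both called. Psmb8 and Pim2 were at 0.19 and 0.00 in clone 2, not called there, and differed by 1.74 (SE 0.28) and 1.66 (SE 0.27) from clone 1, both called.

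Among the genes that rose in clone 1, Col4a1 fell by 1.15 in clone 2 (adjusted p = 0.00102), and the difference of -2.20 (SE 0.27, adjusted p = 5.38e-06) was the largest of those named. Col4a2 likewise fell by 0.65 in clone 2 (adjusted p = 2.59e-07, difference -0.95, SE 0.09). Of 33 measured genes of primitive and visceral endoderm, 0 were called higher and 6 lower in clone 2. The keratin and smooth muscle list had 0 of 22 higher and 0 lower there. Of all genes 3.79% were higher and 1.03% lower in clone 2. Anxa1 and Acta1 were at -0.06 and -0.02 in clone 2, with differences of -1.20 (SE 0.20) and -1.10 (SE 0.22), both called. Krt18 was at 0.01 in clone 2, but its difference of -0.89 (SE 0.29, adjusted p = 0.118) was not called. Aard rose in both clones, by 0.71 and by 0.69 (adjusted p = 0.000375 in clone 2), and its difference of -0.02 had an SE of 0.15. Hex cells, read as group means without a test, moved as clone 1 did in several genes. Unrecombined against recombined, Anxa1 was at 6.64 and 7.63, Acta1 at 5.65 and 6.65, and Col4a1 at 7.44 and 8.44. Pim2 was at 9.36 and 8.62 and Cdkn1c at 8.82 and 7.07 in Hex cells. Gbp2, Gbp2b, Gbp3, Psmb8, Irf1, Isg15 and Trh went the other way from clone 1 there.

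**Figure D4:**
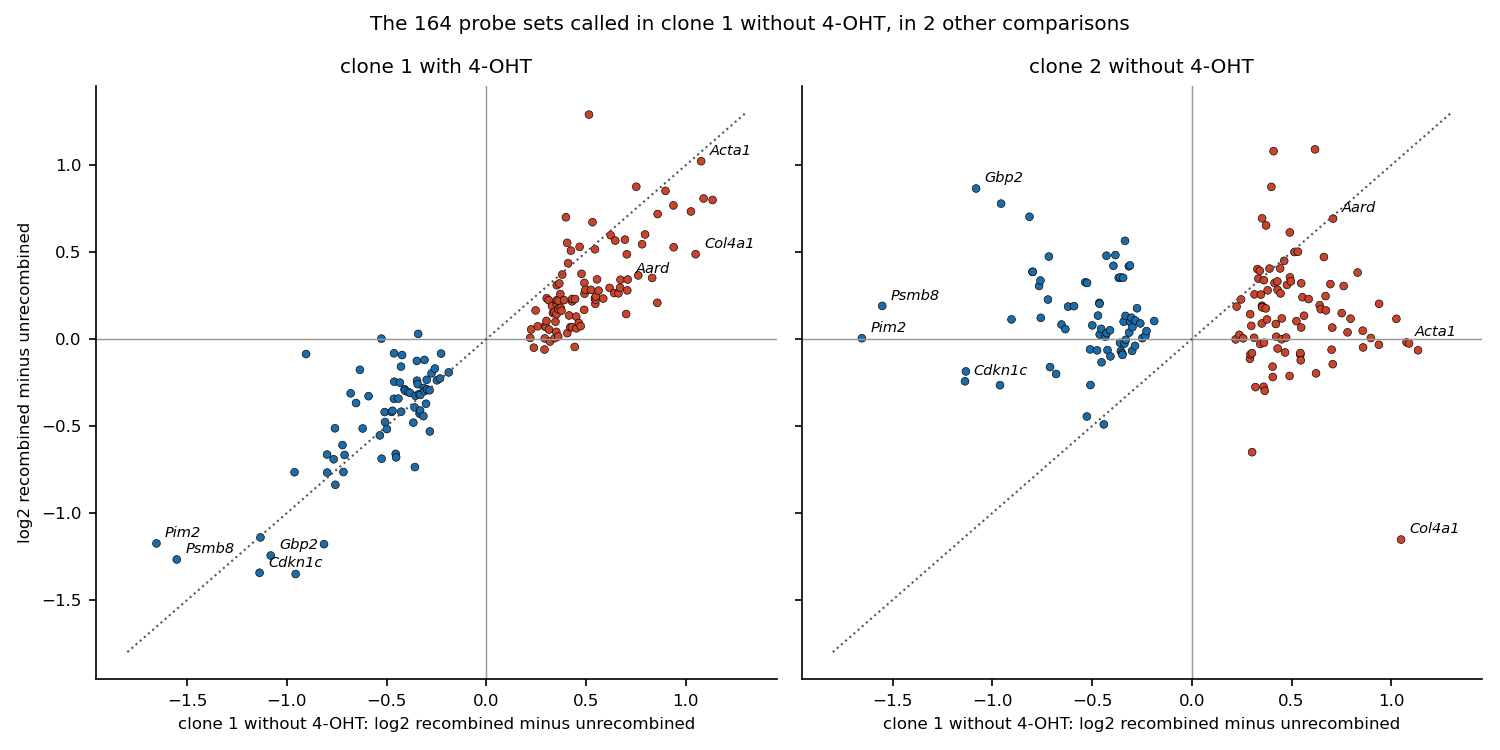
Log2 difference, recombined minus unrecombined, of the 164 probe sets called in clone 1 without 4-OHT (horizontal axis; red higher, blue lower) against the same difference in clone 1 with 4-OHT (left) and in clone 2 without 4-OHT (right); the dotted line marks equal values. With 4-OHT 158 points lie on the same side of 0 as without, and in clone 2 86 do.

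Wild type offered a common reference for both states, with no comparison fitted. Of the 71 probe sets that fell, wild type lay between the clone 1 groups in 53, and the unrecombined mean was above wild type in 57. Of the 93 that rose, wild type lay between in 62, and the recombined mean was above wild type in 87. Recombined cells were nearer to wild type than unrecombined cells in 32 of the 71 and in 37 of the 93. These probe sets were chosen because the clone 1 groups differ, so the counts are a description only.

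The probe sets that rose were not spread evenly over the chromosomes, a grouping made after the values were seen and given without a test. Chromosome 8 held 18 of the 87 higher probe sets with 1 gene symbol and a chromosome, 3.28% of its 548 probe sets where all chromosomes together had 0.805%, and 0 lower ones. They included Acta1, Col4a1, Col4a2, Vegfc, Itgb1 (the shared β subunit of many matrix receptors, 0.55, SE 0.12, adjusted p = 0.0642 without recombined replicate 1, and 0.26 in a second probe set that was not called), Mt2 (a metallothionein, 0.41, SE 0.07), Nqo1, Prdx2 and N4bp1. Without recombined replicate 3 the count was 11, with only these 9 arrays in the fit 6, after adjustment for the β-actin ratio 32, and with array 2 of the unrecombined Hex group in the fit 5. The shift went beyond the called ones: among 315 chromosome 8 probe sets at or above the median intensity, 64.4% had a log2 difference above 0, against 45.2% of all 5598 such probe sets. With 4-OHT the shares were 78.7% and 50.4%.

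The level of chromosome 8 was also taken array by array, as the median deviation of its brighter probe sets from their mean over groups, less the same median over the other chromosomes. In recombined clone 1 without 4-OHT this relative log2 level lay between -0.06 and 0.00, in unrecombined clone 1 between -0.15 and -0.08. With 4-OHT the ranges were -0.03 to 0.02 and -0.15 to -0.09. Wild type lay between -0.05 and 0.02, unrecombined Hex, here with all 4 arrays, between -0.13 and -0.09, recombined Hex between 0.07 and 0.12, and unrecombined and recombined clone 2 without 4-OHT between 0.04 and 0.11 and between 0.07 and 0.10. Chromosome 8 was the only one of 20 whose clone 1 arrays did not overlap both without and with 4-OHT. Mouse ES cell cultures are known to gain chromosome 8. DNA copy number was not measured here, and its part in the result was not tested.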

How the data were processed

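The deposited values are intensities on a linear scale, 1 for each probe set on each array, made by the authors with RMA per the submitters' processing notes, without version or settings. Which arrays were normalised together is not given in the sources used here, nor is a genome build. Intensities were taken to log2; 66 control probe sets were left out and 12422 tested without a filter. The platform annotation gave the symbols (10833 probe sets with 1 symbol, 396 with several, 1193 with none), of which 10817 matched RefSeq GRCm38.p6 by gene ID. That table gave chromosomes and promoters.

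Groups came from the labels; 4 of 44 arrays with contradictory titles were left out. The 39 arrays of 11 groups were fitted in limma 3.58.1 (R 4.3.3; lmFit, eBayes, 28 residual degrees of freedom), with two-sided moderated tests and Benjamini-Hochberg adjustment over all probe sets at 0.05. Where a listed gene had several probe sets, the one of highest mean stood for it. In clone 1 without ligand, same-numbered arrays of the groups deviated together (Pearson r over probe sets 0.34, 0.595, 0.422 and 0.482 for numbers 1 to 4). This is the rule used here for taking numbers as pairs. Some arrays of different number did so as strongly (recombined 2 with unrecombined 5 at 0.63, recombined 3 with unrecombined 4 at 0.53). With 4-OHT the same-numbered r were 0.0635, 0.672 and -0.339 for numbers 1, 2 and 4. Recombined 1 with unrecombined 4 reached 0.707 there, so the rule did not hold with 4-OHT. The main fit used no pairs, and a fit with the number as a block was an alternative in both comparisons. An array without a same-numbered partner, such as unrecombined replicate 5 without ligand, does not affect the difference in that fit. The block and the fit without that array are thus not separate checks of a difference. The named genes were up to 15 rises and 15 falls, called, with 1 symbol and without overlap between arrays, Hhex, Tle4, Nodal and Gt(ROSA)26Sor, up to 4 called members of each of 30 lists (or 2 as values), and up to 5 a direction for differences of effects; a selection is printed. The comparison, its members, lists and rules were chosen with earlier results of these data known. The procedure was tested on simulated data. Figures used matplotlib 3.10.9 (Python 3.11.15).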

Additional observations from a re-analysis of the deposited data

Results flagged for a closer look

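Among 154 sets of 4 or 5 arrays examined, 7 held an array that stood far from the rest of its group, and about 1 in 20 would by chance. Recombined replicate 1 read 6.34 for F3, where the other recombined arrays lay at 7.06 to 7.08, 6.93 for Prom1 (others 7.33 to 7.34) and 9.73 for Car2 (others 10.24 to 10.30). Recombined replicate 2 read 8.63 for Trh (others 8.21 to 8.28), and recombined replicate 3 read 8.69 for Lef1 (others all at 8.89). Unrecombined replicate 4 read 4.18 for Fgf8, a growth factor that was not called (others 4.43 to 4.50), and 6.97 for Skil (others 7.10 to 7.14).

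The recombination effect was compared between the clones by the limma test of the difference itself, and up to 5 probe sets a direction were picked by size among those that passed. Others named also passed, such as Prom1, Isg15 and Tapbp. Clone 2 minus clone 1 was 1.95 for Gbp2, 1.74 for Psmb8, 1.73 for Gbp2b, 1.66 for Pim2 and 1.52 for Gbp3 on the log2 scale. It was -2.20 for Col4a1, -1.20 and -1.11 for 2 probe sets of Anxa1, -1.19 for Lgals1 (galectin-1) and -1.10 for Acta1. Lgals1 was at 0.46 in clone 1 (adjusted p = 0.27, not called). Its difference between the clones lost the call without unrecombined clone 2 replicate 3 (adjusted p = 0.0578) or recombined clone 2 replicate 4 (0.05), and that of the second Anxa1 probe set without unrecombined clone 2 replicate 1 (0.0549) or recombined clone 2 replicate 3 (0.0529).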

How the results depend on the processing

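In clone 1 without ligand the count of 164 was 102 among brighter probe sets only, 49 with only the 9 arrays, 87 with the 16 arrays of clone 1, 68 with array 2 of the unrecombined Hex group, and 109 to 180 on leaving out 1 array. With the replicate block it was 124, and 51 in place of 73 with 4-OHT; of the named calls the block ended those of Pim1, Fst, Lef1, Acta2 and Dnmt3a (adjusted p = 0.0845) and changed no other. The difference between the clones (168) was 36 with that Hex array, 82 with HexERTVP2 arrays only, 517 with the β-actin covariate and 73 to 323 on leaving out 1 array. With 4-OHT the count (73) was 26, 45 among brighter probe sets, 119 with the covariate and 42 to 69. The difference with against without 4-OHT stayed at 0. Interferon members lower were 8 to 10 under every alternative and 9 to 10 on leaving out 1 array. Keratin and smooth muscle members higher were 2 with that Hex array, 8 with the covariate, 1 with 9 arrays and 3 to 4; endoderm members were 1 with 9 arrays and 3 to 4; chromosome 8 probe sets were 5, 32, 6, 10 with 16 arrays, and 11 to 23. The β-actin difference was 0.317 to 0.853, the last with an exact permutation p of 0.0357. Of 49 named calls 26 held under each of the 20 settings in which they were tested (only 33 of the 49 were among the brighter probe sets) and 0 reversed. Signs turned only in uncalled genes: Tle4 (0.015 with quantile normalisation, 0.25 with the covariate, 0.0037 with the block, -0.18 to 0.13 on leaving out 1 array), Gt(ROSA)26Sor (-0.033 with the covariate, -0.013 to 0.18 on leaving out 1 array), Tle1 (-0.017 without recombined replicate 3) and, with the covariate, Fli1 (-0.042), Adsl (0.031), Impdh1 (0.12), Stip1 (0.11) and Hoxc6 (-0.061). The causes were not tested. The counts for lists and for chromosome 8 were followed after seeing the data. The number of arrays limits precision.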

Other observations

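Imprinted genes moved in both directions: of 24 measured, 3 were called lower and 1 higher in recombined clone 1 cells, where 0.703% and 0.848% of all genes were. The median log2 difference of the list was -0.06. Beside Cdkn1c, Magel2, a gene of the Prader-Willi region, fell by 0.51 (SE 0.08, adjusted p = 8.64e-05). Gnas, a G protein subunit, fell by 0.28 (SE 0.07, adjusted p = 0.0276) and Sgce, a sarcoglycan, rose by 0.30 (SE 0.07, adjusted p = 0.0155). The Gnas call was lost without unrecombined replicate 1 or 3 or recombined replicate 1 or 4 (adjusted p 0.0779 to 0.223), and its 2 dimmer probe sets lay the other way, at 0.28 (SE 0.16) and 0.08 (SE 0.08), not called, so Gnas is uncertain. The Sgce call was lost without unrecombined replicate 3 or recombined replicate 1 or 4 (0.0599 to 0.0637).

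Several lists held 1 call each, which says little where 0.848% of all genes were called higher and 0.703% lower. Atf4, a transcription factor of the stress response, fell by 0.46 (SE 0.07, adjusted p = 8.64e-05), and Rpl39l, a ribosomal protein paralog, by 0.44 (SE 0.10, adjusted p = 0.00868). With only the 9 arrays of the comparison in the fit their adjusted p were 0.0539 and 0.0706. Cdkn2b (p15), an inhibitor of cyclin-dependent kinases, rose by 0.41 (SE 0.07, adjusted p = 0.000534). With array 2 of the unrecombined Hex group in the fit the adjusted p of Cdkn2b was 0.169. Tfap2c, a transcription factor of trophoblast and germ cells, fell by 0.36 (SE 0.08, adjusted p = 0.0102), with an adjusted p of 0.0666 without recombined replicate 2. Its call was also lost with quantile normalisation (0.205) and with array 2 of the unrecombined Hex group in the fit (0.303). The same held with only the 9 arrays of the comparison (0.258) or the 16 arrays of clone 1 (0.115).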
